A study of Homo sapiens with 36 samples.

Results

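The 6 human DNA topoisomerases TOP1, TOP1MT, TOP2A, TOP2B, TOP3A and TOP3B, and the tyrosyl-DNA phosphodiesterases TDP1 and TDP2, were followed through actinomycin D treatment of WiT49 cells, a line from an anaplastic Wilms tumor, a childhood kidney cancer. The 8 genes were taken by name, not by a threshold on their values, after the Ensembl identifiers of the count tables were matched to GENCODE release 29. All 8 had a row among the 58174 genes of the RNA tables and the 43548 genes of the ribosome footprint tables. The 36 libraries were 18 of total RNA and 18 of ribosome-protected fragments, in 12 groups of 3. Cells received 2 nM actinomycin D (actD, a DNA-intercalating transcription inhibitor used in Wilms tumor chemotherapy) or its vehicle DMSO for 6 h or 72 h. The 2-week groups went through 2 cycles of 7 days, with drug or vehicle for 3 days and plain medium for 4 days. The labels give no dose for the 2-week drug medium. All groups were cells of this single line in the same growth medium, and none carried a genetic change made for the study. For the 2-week RNA libraries the sample titles and the library names contradict each other on which arm was treated. They are therefore called by the names in the count table, "named actd" and "named dmso", and every 2-week RNA difference is named actd minus named dmso. Under the titles each of those signs is reversed.

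Topoisomerases relieve the twisting that builds up when DNA is copied or transcribed. The type IB enzymes TOP1 (nucleus) and TOP1MT (mitochondria) cut a single strand, the type II enzymes TOP2A and TOP2B cut both strands, and the type IA enzymes TOP3A and TOP3B untangle single strands, with TOP3B also acting on RNA. TOP2A is made mostly in dividing cells and helps separate chromosomes, whereas TOP2B is also made in cells that no longer divide. Each enzyme is briefly joined to the DNA end through a tyrosine. When this link is trapped, TDP1 hydrolyses the bond left by TOP1 and TDP2 the bond left by TOP2. Actinomycin D is known to trap topoisomerases on DNA.

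The RNA tables held 40221994 to 69240041 counts per library and those of footprints 152556 to 1281039, of which 23134 to 283435 lay on protein-coding genes. The footprint values are thus far less precise than the RNA values. IGF2, LIN28B, WT1 and NCAM1 were detected in each RNA library, while the nephron progenitor markers SIX2, PAX2, CITED1 and EYA1 and all 7 markers of blood, endothelial, liver and squamous cells stayed below 1 CPM (the usual library-scaled count, here with TMM factors). In RNA, 3 libraries stood apart. Replicate 3 of both arms at 72 h had summed levels of 10 proliferation genes of 937 CPM (DMSO) and 849.9 CPM (actD), against 1495 to 2079 CPM in the other 4 libraries. Named actd replicate 1 at 2 weeks lay close to the named dmso libraries for several members. The labels number the replicates but do not say what was cultured separately, so p-values measure only the spread between these libraries.

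In vehicle (at 2 weeks, the libraries named dmso), TOP2A was the highest member in RNA at each time, followed by TOP2B, TOP1 and TDP2. On the scale of CPM per kilobase of merged exons, the 6 h DMSO level was 95.9 ± 22.8 (SD, n = 3) for TOP2A, 26.0 ± 6.54 for TOP2B, 24.5 ± 4.88 for TOP1 and 8.06 ± 0.773 for TDP2. The ranges of TOP2B and TOP1 overlapped, and those of the other neighbours among these 4 did not. TOP3A followed at 5.70 ± 0.206, TDP1 at 4.60 ± 0.283, TOP1MT at 3.01 ± 0.123 and TOP3B at 2.93 ± 0.428, of which only the last pair overlapped. At 72 h the same 4 genes led, with 95.1 ± 43.6 for TOP2A, 31.9 ± 7.99 for TOP2B, 18.4 ± 11.4 for TOP1 and 11.6 ± 2.15 for TDP2, and the ranges of TOP1 overlapped those of both its neighbours. In the 2-week libraries named dmso, TOP2A was at 41.4 ± 2.35, TOP2B at 34.1 ± 3.23, TOP1 at 12.9 ± 0.465 and TDP2 at 5.61 ± 0.581, with no overlap between neighbours. The order of the last 4 depended on the length used. With the longest transcript in place of the merged exons, TOP1MT stood at 9.55 at 6 h, above TOP3A at 8.96 and TDP1 at 7.74, and at 2 weeks at 9.82, above TDP2 at 8.16.

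Footprints, the fragments shielded by translating ribosomes, were well counted only for the type II enzymes. In DMSO the TOP2A level per kilobase of coding sequence was 85.5 ± 6.55 at 6 h, 137 ± 55.3 at 72 h and 20.5 ± 2.27 at 2 weeks (n = 3 each). TOP2B was at 11.7 ± 0.777, 31.6 ± 11.1 and 11.8 ± 1.29. The other 6 members did not pass the filter on low counts in any footprint table. TDP2 had 25 footprint counts over the 6 libraries at 72 h and TOP3A had 18, spread over both arms. TOP1MT was listed at 0 in all 18 footprint libraries. TOP1 was listed at 0 in 15 of 18, with 4 counts in actD replicate 2 at 6 h, 1 in DMSO replicate 1 at 72 h and 1 in DMSO replicate 3 at 2 weeks, although its RNA had 2914 to 7119 counts per library at 6 h. Of the 1942 protein-coding genes with at least as much vehicle RNA as TOP1 at 6 h, 132 (6.80%) were likewise listed at 0 in all 6 footprint libraries, and at 72 h 156 of 2378 (6.56%). The 1942 and 2378 genes had median sums over 6 libraries of 34.0 and 69.0 footprint counts, where TOP1 had 4 and 1. The genes with the most RNA among those listed at 0 at 72 h were EEF1G (949 CPM of RNA), RPL11 (673 CPM) and EIF3E (515 CPM), a translation elongation factor, a ribosomal protein and an initiation factor subunit that growing cells use. A footprint value of 0 in these tables is therefore given only as a listing.

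None of the 8 members passed an adjusted p of 0.05 (edgeR quasi-likelihood test, Benjamini-Hochberg over all genes tested) in RNA at 6 h, where 0% of 22669 genes did, at 72 h, where 0.00472% of 21195 genes did, or at 2 weeks, where 0% of 21137 genes did. At an unadjusted p under 0.05, TOP1 and TDP2 were counted at 6 h (8.21% of all genes), TOP1 and TOP2A at 72 h (13.1%), and TOP1, TOP2A and TOP3B at 2 weeks (8.93%). DESeq2 called no member at 6 h or 2 weeks and 1, TOP1, at 72 h. The CPM ranges of the arms did not overlap for 3 of 8 members at 6 h (15.8% of all genes), 3 of 8 at 72 h (20.9%) and 2 of 8 at 2 weeks (15.7%). The log2 fold change was below 0 for 7 members at 6 h, 7 at 72 h and 6 at 2 weeks, with medians of -0.16, -0.28 and -0.16, where the medians of all genes tested were 0.02, 0.02 and -0.02. TMM scaling holds the median of all genes near 0. The values are thus relative to other genes, and a change shared by most genes would not show in them. In bulk RNA, fewer cells of one kind and less RNA per cell cannot be told apart.

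**Figure D1:**
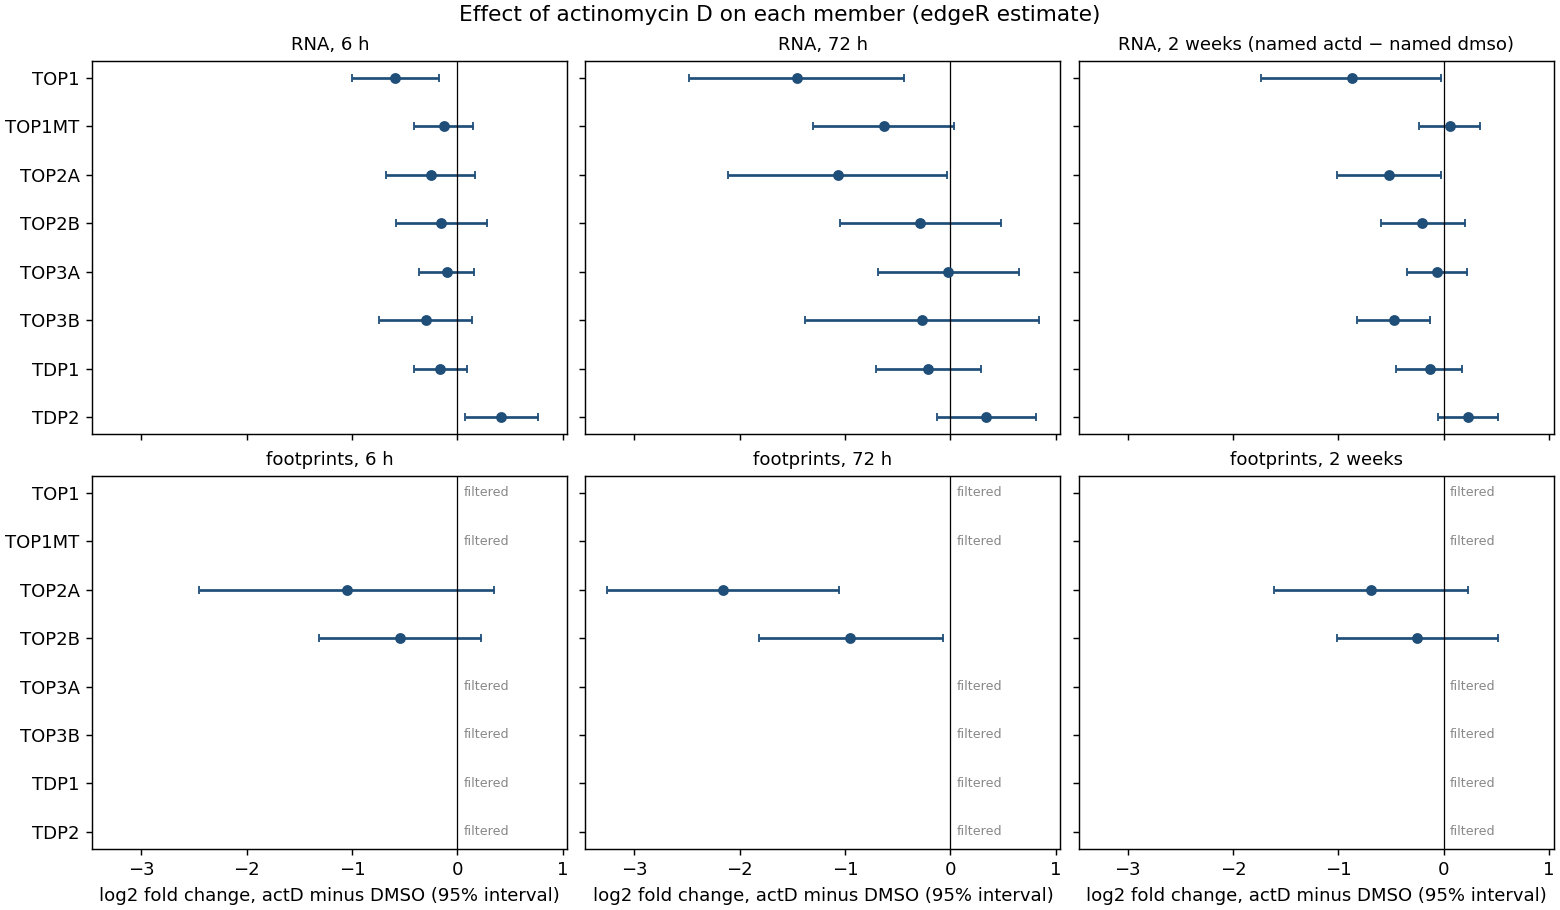
Log2 fold change of each member with its 95% interval (edgeR), for actD minus DMSO, and for named actd minus named dmso in 2-week RNA; "filtered" marks members below the count filter. TOP1 lies left of 0 in each RNA panel, TDP2 right of 0, and the largest estimate is that of TOP2A footprints at 72 h, at -2.16.

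TOP1, the nuclear type IB enzyme that unwinds DNA ahead of RNA polymerase, lies on chromosome 20 (GRCh38, 41028818 to 41124487, plus strand) with 1 annotated transcript. At 6 h its RNA was at 74.7, 88.7 and 110.9 CPM in DMSO and at 68.4, 64.4 and 49.6 CPM in actD. At 72 h the DMSO libraries had 59.4, 116 and 31.6 CPM and the actD libraries 22, 23 and 30.2 CPM. At 2 weeks the named dmso libraries had 50.2, 46.9 and 47.8 CPM and the named actd libraries 45.6, 14.8 and 18.9 CPM. The arms did not overlap at any of the 3 times, but at 72 h DMSO replicate 3 lay just above the highest actD library, and at 2 weeks named actd replicate 1 lay just under the lowest named dmso library. The log2 fold changes were -0.59 (SE 0.18, edgeR adjusted p = 0.494) at 6 h, -1.46 (SE 0.44, adjusted p = 0.281) at 72 h and -0.87 (SE 0.37, adjusted p = 0.552) at 2 weeks. Only 4.55%, 1.21% and 3.17% of all genes tested had a lower value at these times. At 72 h the adjusted p was 0.0459 with DESeq2 and 0.0487 when all 18 RNA libraries shared 1 edgeR fit, and ran from 0.0459 to 0.653 over all alternatives. Without DMSO replicate 2 the 72 h value was -0.87, and without named actd replicate 1 the 2-week value was -1.51 (edgeR adjusted p = 0.0634, the range over alternatives being 0.0634 to 0.994). The difference between the 72 h and 6 h effects was -0.89 (SE 0.51, edgeR adjusted p = 0.697), which did not pass the threshold. At 72 h the share of counts on protein-coding genes was 63.2 to 67.6% in DMSO and 54.3 to 62.4% in actD, and at 2 weeks 61.1 to 62.5% in the named dmso and 52.9 to 59.3% in the named actd libraries, of which replicate 1 had 59.3%. The part of this share in these values was not tested.

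TOP1 and TDP2 had non-overlapping arms with opposite signs in RNA at 6 h and 72 h. The 250 bases before their RefSeq starts are shown (GRCh38.p14), with each GGGCGG or its complement CCGCCC (the GC box) in capitals. RefSeq and GENCODE starts differ, so the end of each stretch lies within the gene span given here. For TDP2 that part holds all matches but the most upstream. A link between these letters and the signs was not tested. The TOP1 stretch is chr20:41028572-41028821 on the plus strand and the TDP2 stretch chr6:24666900-24667149 on the minus strand, both written 5′ to 3′ in the direction of the gene.
TOP1: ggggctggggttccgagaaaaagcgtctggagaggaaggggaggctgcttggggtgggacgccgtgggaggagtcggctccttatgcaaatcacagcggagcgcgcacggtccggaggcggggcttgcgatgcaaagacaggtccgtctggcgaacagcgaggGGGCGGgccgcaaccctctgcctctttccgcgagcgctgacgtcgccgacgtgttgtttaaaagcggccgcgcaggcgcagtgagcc
TDP2: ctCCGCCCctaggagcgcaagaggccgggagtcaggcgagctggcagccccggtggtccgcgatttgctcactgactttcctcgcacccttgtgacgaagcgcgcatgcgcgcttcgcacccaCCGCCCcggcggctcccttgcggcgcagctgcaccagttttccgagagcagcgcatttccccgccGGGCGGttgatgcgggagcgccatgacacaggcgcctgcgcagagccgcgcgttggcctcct
TOP1 held 1 such match and TDP2 held 3, and 42.6% of the 35116 stretches in the RefSeq table held at least 1. The share that held at least 3 was not counted. Neither held CCAAT or its complement ATTGG, which 32% of the stretches held. A stretch was kept here for 7 of 8 members. That count does not show whether the RefSeq table lists one for the remaining member.

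TOP1MT, the mitochondrial type IB enzyme (chromosome 8, 143304384 to 143359979, minus strand), had RNA of 19.9, 19.7 and 18.5 CPM in DMSO and 16.2, 19.6 and 17.3 CPM in actD at 6 h. At 72 h the DMSO libraries had 13.8, 23.3 and 15.6 CPM and the actD libraries 12.1, 13.4 and 8.48 CPM. The arms overlapped at 6 h and were separated by a narrow gap at 72 h. The log2 fold changes were -0.13 (SE 0.12) at 6 h and -0.63 (SE 0.29, edgeR adjusted p = 0.403) at 72 h. At 2 weeks the named dmso libraries spanned 17.3 to 22.4 CPM and the named actd libraries 19.7 to 21.6 CPM, with a log2 fold change of 0.06 (95% interval -0.23 to 0.35). That sign turned to -0.09 when library totals replaced TMM, a scaling that moved the median of all genes from -0.02 to -0.18.

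TOP2A, the type II enzyme of dividing cells (chromosome 17, 40388516 to 40417950, minus strand), had RNA of 452, 733 and 667 CPM in DMSO and 524, 547 and 484 CPM in actD at 6 h, and the arms overlapped. The 72 h libraries had 755, 792 and 289 CPM in DMSO and 365, 342 and 168 CPM in actD. DMSO replicate 3 lay below 2 of the actD libraries, so the arms overlapped. At 2 weeks it was at 255, 261 and 284 CPM in the named dmso libraries and at 256, 141 and 163 CPM in the named actd libraries, of which replicate 1 matched the named dmso level. The log2 fold changes were -0.25 (SE 0.18, edgeR adjusted p = 0.776) at 6 h, -1.07 (SE 0.45, adjusted p = 0.373) at 72 h and -0.52 (SE 0.21, adjusted p = 0.536) at 2 weeks. Without replicate 3 of both arms, a choice made after seeing the data, the 72 h value was -1.14 and the edgeR adjusted p 0.0478, in a range over alternatives of 0.0478 to 0.683. Without named actd replicate 1 the 2-week value was -0.80 (edgeR adjusted p = 0.0814, range over alternatives 0.0814 to 0.994). At 72 h the summed level of the 10 proliferation genes was 937 to 2079 CPM in DMSO and 849.9 to 1662 CPM in actD. Like TOP2A, the sum was lowest in replicate 3 of both arms. In actD replicates 1 and 2, where TOP2A was at 365 and 342 CPM, the sum was at 1495 and 1662 CPM. At 2 weeks it was at 766, 765 and 798 CPM in the named dmso libraries and at 785, 576 and 639 CPM in the named actd libraries, with replicate 1 again at the named dmso level. The part of this sum in the TOP2A values was not tested.

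TOP2B, its paralog (chromosome 3, 25597905 to 25664907, minus strand), had RNA of 112, 176 and 184 CPM in DMSO and 145, 145 and 135 CPM in actD at 6 h. The 72 h libraries had 227, 214 and 137 CPM in DMSO and 115, 128 and 231 CPM in actD. Replicate 3 was the lowest DMSO library and the highest actD library, so the arms overlapped. The 2-week values spanned 189 to 227 CPM in the named dmso libraries and 144 to 221 CPM in the named actd libraries. The log2 fold changes were -0.15 (95% interval -0.58 to 0.28), -0.29 (-1.05 to 0.48) and -0.20 (-0.59 to 0.20) at the 3 times, and none passed the test. Without replicate 3 of both arms the 72 h value was -0.87 (edgeR adjusted p = 0.0571, range over alternatives 0.0571 to 0.949).

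**Figure D2:**
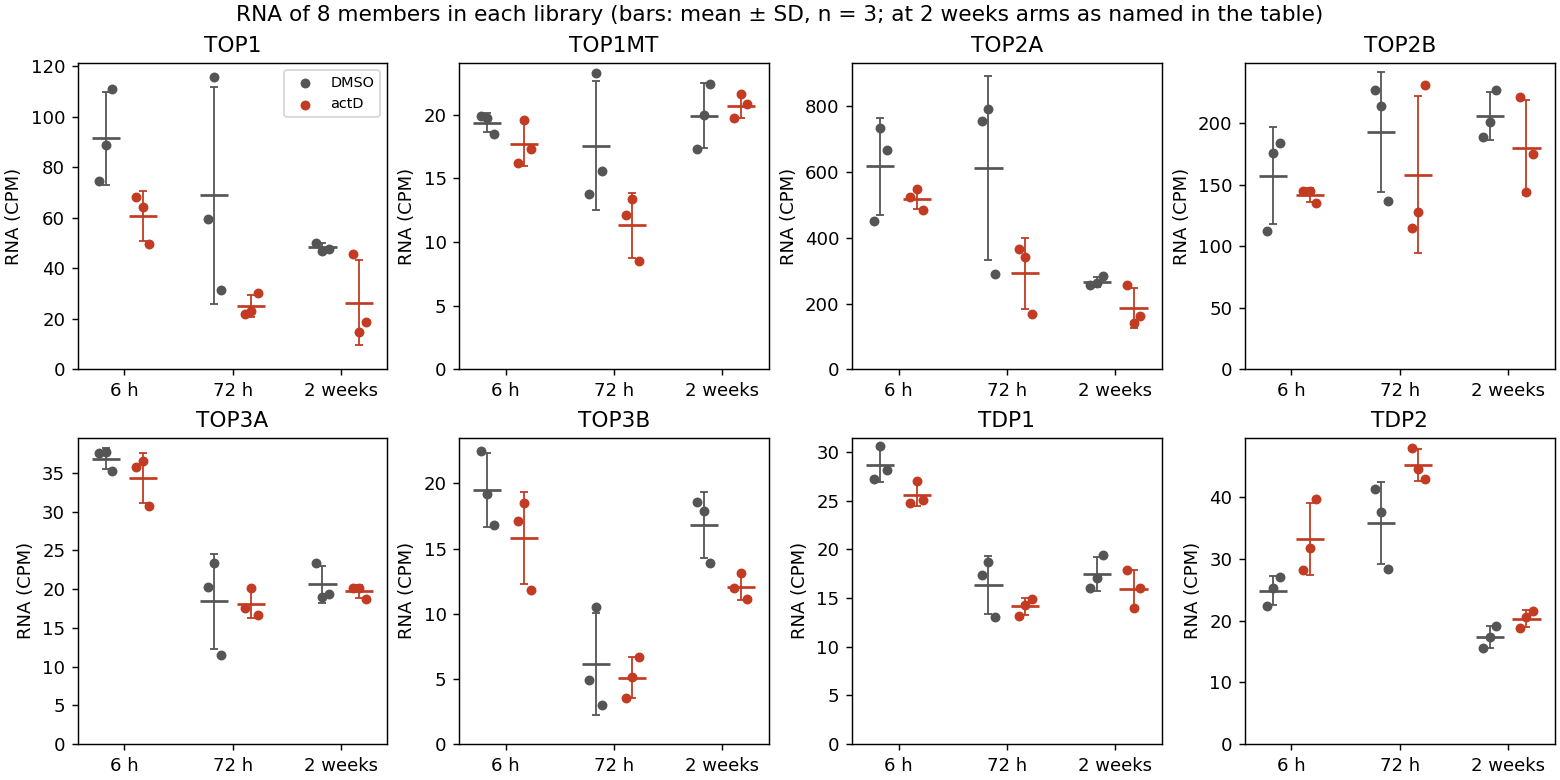
RNA of each member in each library (points, CPM; bars, mean ± SD of 3) at 6 h, 72 h and 2 weeks, DMSO in grey and actD in red, with the 2-week arms as named in the count table. TOP1 is separated between arms at the 3 times, and at 72 h TOP2A is lowest in replicate 3 of both arms, at 289 and 168 CPM.

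Ribosome footprints of TOP2A were at 358, 413 and 407 CPM in DMSO and at 141, 241 and 187 CPM in actD at 6 h, with counts of 155 to 351 and 68 to 91. At 72 h they were at 699, 842 and 348 CPM in DMSO and at 137, 147 and 140.4 CPM in actD. At 2 weeks they were at 82.1, 99.0 and 101 CPM in DMSO and at 86.6, 37.6 and 51.0 CPM in actD. The arms were apart at 6 h and 72 h and overlapped at 2 weeks through actD replicate 1. At 6 h the libraries were scaled very unequally. The share of footprint counts on protein-coding genes ran from 2.12% (actD replicate 1, TMM factor 0.383) to 19.8% (DMSO replicate 1, TMM factor 2.35). The part of this share in the 6 h values was not tested. No member was called among footprints (edgeR adjusted p under 0.05) at 6 h, where 0% of 1212 genes were, at 72 h, where 3.79% of 2426 genes were, or at 2 weeks, where 0% of 1598 genes were. The TOP2A log2 fold changes were -1.05 (SE 0.59, edgeR adjusted p = 0.889), -2.16 (SE 0.47, adjusted p = 0.0502) and -0.69 (SE 0.40, adjusted p = 0.604). The 72 h value thus lay just outside the threshold, and 1.77% of genes had a lower one. Its adjusted p ran from 0.00438 with DESeq2 to 0.277 with library totals, and was 0.0421 in the joint edgeR fit, 0.0403 without DMSO replicate 3 and 0.0160 without replicate 3 of both arms. DMSO replicate 3 was the shallowest footprint library, with 28 TOP2A counts. Summed footprints of the 10 proliferation genes were at 485 to 929 CPM in DMSO and 349 to 942 CPM in actD at 72 h, and at 113 to 124 CPM and 78.7 to 101 CPM at 2 weeks.

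TOP2B footprints were at 53.0, 58.4 and 60.3 CPM in DMSO and at 39.3, 45 and 33.7 CPM in actD at 6 h, from 15 to 52 counts per library. At 72 h they were at 208, 154 and 99.5 CPM in DMSO and at 68.7, 78.9 and 98.7 CPM in actD, where DMSO replicate 3 had 8 counts. The arms did not overlap at either time, which held for 9.41% of all genes at 6 h and 35.7% at 72 h. At 2 weeks they overlapped, at 52.7 to 64.8 CPM in DMSO and 34.2 to 57.0 CPM in actD, where 14.9% of all genes did not. The log2 fold changes were -0.54 (SE 0.32), -0.95 (SE 0.38, edgeR adjusted p = 0.160) and -0.25 (SE 0.33). At an unadjusted p under 0.05 in the main edgeR fits, neither gene was counted at 6 h (3.14% of all genes) or 2 weeks (8.57%). Both were counted at 72 h (27.3%). Library totals gave 6 h values of -1.70 for TOP2A and -1.30 for TOP2B and moved the median of all genes from 0.11 to -0.61.

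**Figure D3:**
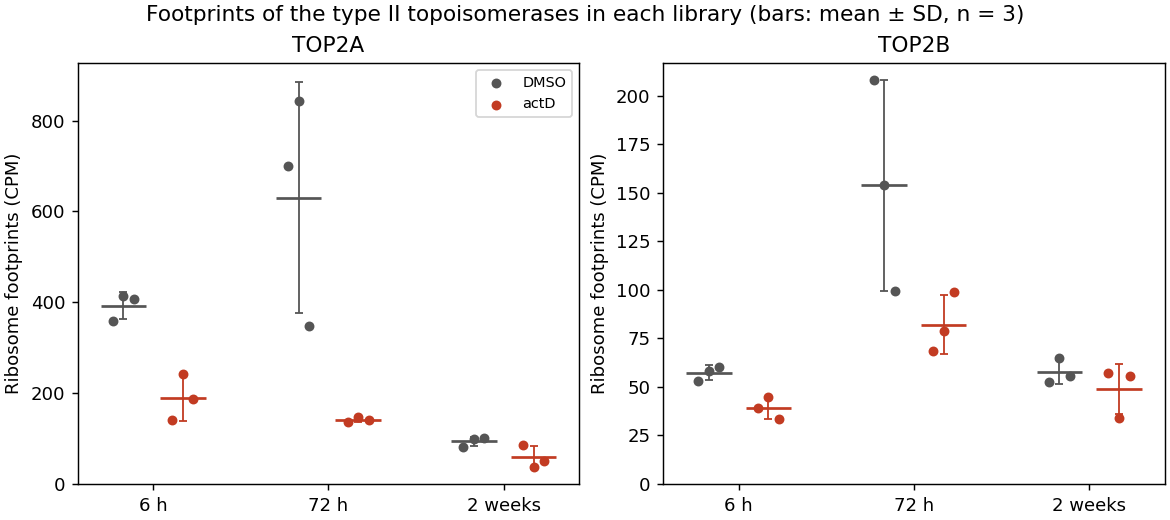
Footprints of TOP2A and TOP2B in each library (points, CPM; bars, mean ± SD of 3) at 6 h, 72 h and 2 weeks, DMSO in grey and actD in red. At 72 h the 3 actD libraries of TOP2A lie between 137 and 147 CPM and the DMSO libraries between 348 and 842 CPM.

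Translational efficiency, the footprint change relative to the RNA change, was tested as the interaction of assay and treatment at 6 h and 72 h. TOP2A had interaction values of -0.79 (SE 0.41, edgeR adjusted p = 0.941) at 6 h and -1.30 (SE 0.61, adjusted p = 0.347) at 72 h, and TOP2B -0.36 (SE 0.39) and -0.83 (SE 0.47, adjusted p = 0.433). No member was called at 6 h, where 0% of 951 genes were, or at 72 h, where 0.433% of 2311 genes were. Neither gene reached an unadjusted p of 0.05 in the main edgeR fit (5.26% and 14.9% of all genes did). Some edgeR alternatives reached it and others did not. With same-numbered RNA and footprint libraries blocked, TOP2A at 72 h had an unadjusted p of 0.0272 (edgeR, adjusted p = 0.226). Without footprint actD replicate 2, TOP2A at 6 h had 0.0153 (edgeR, adjusted p = 0.495). DESeq2 gave TOP2A unadjusted p of 0.0424 at 6 h and 0.0434 at 72 h, with adjusted p of 0.635 and 0.315. No such test was made at 2 weeks, where the RNA labels contradict each other.

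The ratio of TOP2A to TOP2B within a library, per kilobase, does not depend on how libraries are scaled against each other. In footprints it was 7.17, 7.51 and 7.16 in DMSO and 3.80, 5.69 and 5.88 in actD at 6 h, 3.57, 5.80 and 3.72 against 2.12, 1.98 and 1.51 at 72 h, and 1.66, 1.62 and 1.92 against 1.61, 1.17 and 0.978 at 2 weeks. The actD libraries were lower without overlap at each time, narrowly so at 2 weeks. A ratio to TOP2B that was lower without overlap was found for 1.32%, 3.05% and 3.51% of the genes tested at the 3 times. These shares count the lower direction only. They also depend on TOP2B, whose own footprint log2 fold changes were below 0 at the 3 times. In RNA the ratio was 3.79, 3.92 and 3.39 in DMSO and 3.40, 3.54 and 3.36 in actD at 6 h, and 3.13, 3.47 and 1.97 against 2.98, 2.52 and 0.682 at 72 h, with overlap at both times. At 2 weeks it was 1.27, 1.22 and 1.17 in the named dmso libraries and 1.09, 0.919 and 0.874 in the named actd libraries, without overlap (lower for 1.76% of genes). The exact two-sided permutation test of 3 libraries against 3 cannot go below p = 0.1, which each non-overlapping ratio reached, and over the 15 ratio comparisons made the adjusted p was 0.136.

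The 250 bases before the RefSeq starts of the paralogs compared in this ratio are shown (GRCh38.p14, minus strand, 5′ to 3′ in the direction of the gene). TOP2A is chr17:40417897-40418146 and TOP2B, at the more upstream of its RefSeq starts, chr3:25664908-25665157. Capitals mark CCAAT or its complement ATTGG (the CCAAT box, bound by NF-Y) and GGGCGG or CCGCCC (the GC box), which do not overlap here.
TOP2A: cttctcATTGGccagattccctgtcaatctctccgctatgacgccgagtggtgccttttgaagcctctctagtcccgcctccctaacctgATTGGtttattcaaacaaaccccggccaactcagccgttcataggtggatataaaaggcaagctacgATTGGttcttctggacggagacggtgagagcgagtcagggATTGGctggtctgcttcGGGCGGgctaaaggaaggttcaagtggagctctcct
TOP2B: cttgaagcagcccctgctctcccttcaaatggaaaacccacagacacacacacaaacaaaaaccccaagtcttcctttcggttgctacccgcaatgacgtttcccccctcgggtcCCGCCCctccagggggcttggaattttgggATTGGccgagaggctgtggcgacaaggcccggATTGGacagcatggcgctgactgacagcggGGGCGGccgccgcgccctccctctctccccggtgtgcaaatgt
TOP2A held 4 CCAAT boxes, each as ATTGG, and 1 GC box, and TOP2B held 2 of each. The GC box and the most downstream CCAAT box of TOP2A lie within its GENCODE gene span. The stretch before the other RefSeq start of TOP2B (chr3:25664373-25664622) held no CCAAT box and 1 GC box. At least 1 CCAAT box was found in 32% of the 35116 stretches and at least 4, a cut equal to the TOP2A count, in 0.874%. These are matches of letters and were not measured here.

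**Figure D4:**
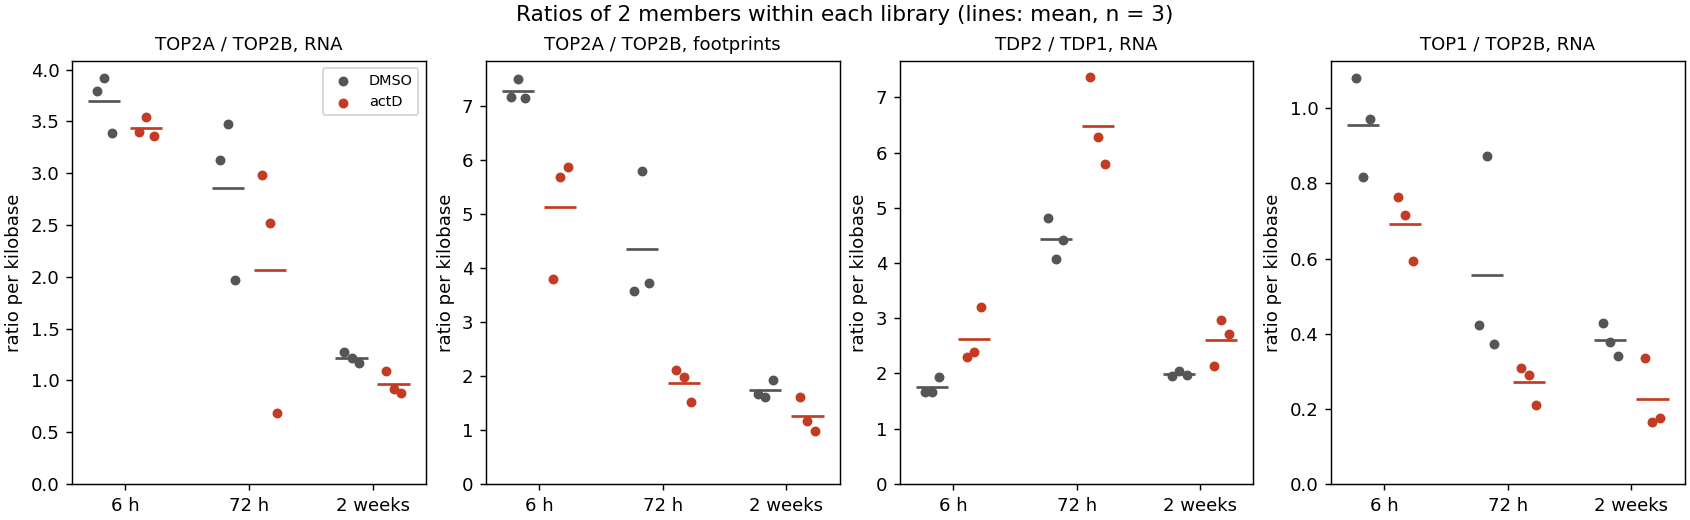
Ratios per kilobase of pairs of members within each library (points; lines, mean of 3) at 6 h, 72 h and 2 weeks, DMSO in grey and actD in red, with 2-week RNA arms as named in the count table. The arms are apart at the 3 times for the TOP2A to TOP2B ratio in footprints and for the TDP2 to TDP1 and TOP1 to TOP2B ratios in RNA.

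TOP3A, which works with BLM and RMI1 in dissolving joined DNA molecules (chromosome 17, 18271428 to 18315007, minus strand), had RNA of 37.6, 37.7 and 35.3 CPM in DMSO and 35.8, 36.6 and 30.7 CPM in actD at 6 h. At 72 h it was at 20.3, 23.4 and 11.5 CPM in DMSO and at 17.5, 20.2 and 16.7 CPM in actD, and in the 2-week libraries at 23.4, 19.0 and 19.4 CPM (named dmso) and 20.2, 20.2 and 18.7 CPM (named actd). The arms overlapped at the 3 times. Its log2 fold changes were -0.10 (95% interval -0.36 to 0.16), -0.02 (-0.69 to 0.65) and -0.06 (-0.35 to 0.22). TOP3B, the family member that also acts on RNA (chromosome 22, 21957025 to 21982816, minus strand), was at 22.5, 19.2 and 16.8 CPM in DMSO and 17.1, 18.5 and 11.8 CPM in actD at 6 h, with overlap. At 72 h it was at 4.91, 10.5 and 2.98 CPM in DMSO and at 3.49, 5.11 and 6.64 CPM in actD, with a wide spread in both arms. At 2 weeks it was at 18.6, 17.9 and 13.9 CPM in the named dmso libraries and at 12, 13.1 and 11.1 CPM in the named actd libraries, without overlap. The log2 fold changes of TOP3B were -0.30 (SE 0.19) at 6 h, -0.27 (SE 0.48) at 72 h and -0.47 (SE 0.15, edgeR adjusted p = 0.468) at 2 weeks, and without DMSO replicate 2 the 72 h value was 0.36. The TOP3B values are uncertain, since 6024 bases of its exons lie on the antisense gene AC245452.1 and the use of strand in counting is not given in the sources used here. AC245452.1 had 330 to 1280 counts per RNA library, with means of 1122 in DMSO and 1041 in actD at 6 h, 397 and 574 at 72 h, and 690.3 in the named dmso and 501 in the named actd libraries at 2 weeks. TOP3B also has a processed pseudogene, TOP3BP1, with a mean of 96.0 counts in the 6 h DMSO libraries.

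TDP1, which removes TOP1 peptides from 3′ DNA ends (chromosome 14, 89954939 to 90044768, plus strand), had RNA of 27.2, 30.6 and 28.2 CPM in DMSO and 24.8, 27.0 and 25.1 CPM in actD at 6 h, narrowly apart. At 72 h it spanned 13 to 18.7 CPM in DMSO and 13.2 to 14.9 CPM in actD, and at 2 weeks 16.0 to 19.4 CPM in the named dmso and 14.0 to 17.9 CPM in the named actd libraries. Its log2 fold changes were -0.16 (SE 0.11, edgeR adjusted p = 0.755) at 6 h, -0.21 (SE 0.22) at 72 h and -0.13 (SE 0.14) at 2 weeks, and the arms overlapped at the last 2 times. TDP2, which removes TOP2 peptides from 5′ ends (chromosome 6, 24649977 to 24667033, minus strand), was at 22.3, 25.2 and 27.0 CPM in DMSO and at 28.2, 31.8 and 39.7 CPM in actD at 6 h. At 72 h it was at 41.3, 37.6 and 28.4 CPM in DMSO and at 48.0, 44.5 and 42.9 CPM in actD. The actD libraries were above all DMSO libraries at both times. At 2 weeks the named dmso libraries had 15.5, 17.4 and 19.1 CPM and the named actd libraries 18.8, 20.5 and 21.6 CPM, which overlapped. The TDP2 log2 fold changes were 0.42 (SE 0.15, edgeR adjusted p = 0.565), 0.34 (SE 0.20, adjusted p = 0.516) and 0.23 (SE 0.12, adjusted p = 0.622). Among all genes tested, 88.8%, 73.9% and 81.3% had a lower value.

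The ratio of TDP2 to TDP1 in RNA, per kilobase, was 1.66, 1.67 and 1.94 in DMSO and 2.30, 2.38 and 3.20 in actD at 6 h. At 72 h it was 4.81, 4.07 and 4.42 in DMSO and 7.37, 6.29 and 5.80 in actD. At 2 weeks it was 1.95, 2.05 and 1.98 in the named dmso libraries and 2.13, 2.97 and 2.72 in the named actd libraries. The arms did not overlap at any time, and a ratio to TDP1 that was higher without overlap was found for 16.5%, 15.8% and 13.3% of the genes tested, so it was common among all genes. The ratio of TOP1 to TOP2B had means of 0.956 ± 0.132 in DMSO and 0.692 ± 0.0876 in actD at 6 h, 0.557 ± 0.275 against 0.271 ± 0.0520 at 72 h, and in the 2-week libraries 0.382 ± 0.0447 (named dmso) and 0.225 ± 0.0947 (named actd), each with its SD over 3 libraries. It was lower without overlap each time, which held for 1.67%, 2.43% and 1.76% of genes. These shares, too, count the lower direction only and depend on TOP2B, whose RNA log2 fold changes were below 0 at the 3 times. The TOP3A to TOP3B ratio overlapped between arms at 6 h and 72 h and was 1.29, 1.09 and 1.44 against 1.72, 1.58 and 1.73 at 2 weeks, where 31.6% of genes had a higher ratio to TOP3B without overlap. These ratios fall under the same permutation limit.

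The effect of actD was also compared between 72 h and 6 h. No member was called in RNA, where 0.0165% of 24251 genes were, or in footprints, where 0% of 3012 genes were (edgeR adjusted p under 0.05). In these main fits none had an unadjusted p under 0.05 (8.02% and 6.54% of all genes did). With same-numbered libraries of both arms blocked, TOP2A RNA had an unadjusted p of 0.0233 (edgeR, adjusted p = 0.585). DESeq2 called no member in either. The differences in RNA effect ran from -0.89 for TOP1 and -0.84 (SE 0.51) for TOP2A to 0.06 (SE 0.31) for TOP3A. In footprints they were -1.01 (SE 0.73) for TOP2A and -0.31 (SE 0.57) for TOP2B.

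Partner genes were taken from 5 lists, and no gene of any list was called in any of the 10 comparisons (edgeR). All of their members passed the filter in RNA. The 12 genes that process breaks linked to TOP1 had median log2 fold changes of -0.10, -0.07 and -0.10 at 6 h, 72 h and 2 weeks. Their lowest value each time was that of PARP1, the poly(ADP-ribose) polymerase that binds strand breaks. PARP1 RNA was at 297 ± 4.94 CPM in DMSO and 188 ± 62.7 CPM in actD at 6 h, a log2 fold change of -0.66 (SE 0.24). At 72 h it was at 169.7 ± 117 against 35.1 ± 3.71 CPM (-2.27, SE 0.49, edgeR adjusted p = 0.232). At 2 weeks it was at 226 ± 24.7 CPM in the named dmso and 149.9 ± 23.3 CPM in the named actd libraries (-0.59, SE 0.15). Its arms did not overlap at any time. XRCC1, the scaffold of single-strand break repair, had -1.06 (SE 0.29) at 72 h and -0.58 (SE 0.11, edgeR adjusted p = 0.308) at 2 weeks, and LIG3, the ligase it carries, -0.42 (SE 0.18) at 6 h. In footprints FEN1, a flap endonuclease, had -0.28 (SE 0.37) at 6 h and -0.68 (SE 0.36) at 72 h, and SPRTN, a protease of DNA-bound proteins, -0.42 (SE 0.50) at 72 h.

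The 13 genes that act on TOP2-linked breaks had medians of 0.01, -0.24 and -0.12. RBBP8, an end-resection factor, had 0.35 (SE 0.17) and PIAS4, a SUMO ligase, -0.30 (SE 0.11) at 6 h. At 72 h XRCC5, a subunit of the Ku heterodimer, was at a mean of 424 CPM in DMSO and 189 CPM in actD (-1.17, SE 0.29, edgeR adjusted p = 0.257), and RNF4, a SUMO-targeted ubiquitin ligase, had -0.86 (SE 0.25). In 2-week RNA MRE11 had -0.41 (SE 0.23) and XRCC5 -0.40 (SE 0.20). In footprints at 72 h, where 5 of the 13 passed the filter, the MRE11 partner RAD50 had -1.29 (SE 0.45, edgeR adjusted p = 0.124) and LIG4, a ligase of end joining, -0.76 (SE 0.66). The Ku subunit XRCC6 had footprint values of -0.42 (SE 0.72) at 6 h and 0.55 (SE 0.28) at 2 weeks, PRKDC, the DNA-dependent protein kinase, -0.26 (SE 0.57) at 6 h, and ZNF451, a SUMO ligase, 0.21 (SE 0.27) at 2 weeks.

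The 5 partners of TOP3A and TOP3B had medians of 0.12, -0.49 and 0.07. BLM, the helicase that works with TOP3A, had -0.96 (SE 0.33, edgeR adjusted p = 0.316) at 72 h and -0.61 (SE 0.21) at 2 weeks, and TDRD3, the scaffold of TOP3B, had -0.60 (SE 0.21) and -0.18 (SE 0.15). At 6 h FMR1 had 0.35 (SE 0.15) and RMI1 0.28 (SE 0.16). The 7 genes of mitochondrial DNA maintenance had medians of -0.05, -0.03 and 0.04. POLRMT, the mitochondrial RNA polymerase, had -0.62 (SE 0.15, edgeR adjusted p = 0.373) at 6 h, -0.52 (SE 0.46) at 72 h and -0.35 (SE 0.10) at 2 weeks. TFAM, which packages mitochondrial DNA, had 0.31 (SE 0.14) at 6 h, and POLG2, a subunit of the mitochondrial DNA polymerase, had 0.55 (SE 0.23) at 72 h and -0.41 (SE 0.16) at 2 weeks.

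The 10 proliferation genes had RNA medians of -0.11, -0.46 and -0.19. TPX2, a spindle assembly factor, had -0.66 (SE 0.17, edgeR adjusted p = 0.433), -0.93 (SE 0.39) and -0.72 (SE 0.21) at the 3 times. CENPF, a kinetochore protein, had 0.49 (SE 0.31) at 6 h, and MKI67 had -0.76 (SE 0.87) at 72 h and -0.53 (SE 0.15) at 2 weeks. In footprints MKI67 was at 113 ± 30.1 CPM in DMSO and 29.6 ± 12.1 CPM in actD at 6 h (-1.92, SE 0.49, edgeR adjusted p = 0.889) and at 34.4 ± 10.5 against 12.6 ± 4.07 CPM at 2 weeks (-1.42, SE 0.35, adjusted p = 0.527), without overlap both times. Other footprint values of the list lay on either side of 0. Among those that passed the filter, 2 of 3 were above 0 at 6 h (median 0.39), 3 of 6 at 72 h (median -0.30) and 0 of 2 at 2 weeks. The cyclin CCNB1 had 0.77 (SE 0.90) at 6 h and -2.67 (SE 1.15) at 72 h, UBE2C, a ubiquitin-conjugating enzyme of mitosis, had 1.29 (SE 0.66) at 72 h without overlap, and CENPF had -0.04 (SE 0.29) at 2 weeks.

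Likeness of pattern was measured over the 18 RNA libraries as Pearson's r of log2 CPM centred within each table, among 14016 protein-coding genes, as a description in which treatment and library are shared by all points. TOP1 was most like CTR9 and KDM4A (r = 0.97 each), TOP2A like BRIP1 (0.97) and DLGAP5 (0.96), TOP2B like HIF1A (0.93) and TOP3A like TELO2 (0.95) and DCAF15 (0.94). TOP3B was most like DHX38 and RBM10 (0.92 each), TDP1 like FTSJ3 and LMNB1 (0.90 each), TDP2 like HEXIM1 (0.93) and ZADH2 (0.91) and TOP1MT like PRKCD (0.89) and PPM1F (0.88). Among the members themselves the highest r were 0.83 for TDP1 with TOP1 and 0.79 for TOP1 with TOP2A. TDP2 had negative values with 6 of the other 7, the lowest being -0.46 with TOP1.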

How the data were processed

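The deposited data, 6 tables (RNA and footprints at 6 h, 72 h and 2 weeks, 6 libraries each), held whole-number estimated counts per Ensembl gene. HISAT2, StringTie and build hg38 are named in the submitters' processing notes, and the counting step and its use of strand are not given in the sources used here. RNA came from a stranded total RNA kit, per the labels' protocols. In the 6 h and 2-week RNA tables the value 3 occurs more often than 2 or 4 (10907, 6872 and 4104 times at 6 h), so a value is not always a number of reads. Of the identifiers, 99.4% matched GENCODE 29.

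Each table was fitted alone with edgeR 4.0.16 (quasi-likelihood, TMM, filterByExpr, two-sided, Benjamini-Hochberg over all genes, called at adjusted p under 0.05) in R 4.3.3. CPM uses the same TMM factors. Translational efficiency and the 72 h against 6 h comparison are interaction terms. The fits were checked on simulated counts with large planted changes and a single fixed spread between replicates. That check does not measure power at the spread and effect sizes of these data. DESeq2 1.42.0, library totals, a looser filter (at least 1 count in 3 libraries), a replicate block, a joint fit of all time points and leaving out each library were tried. The rule for named genes took all 8 members, the 2 genes of each list with the largest change where none was called, and the 2 genes most like each member (pseudocount 0.5 CPM). Members and lists were chosen with earlier results of these data known, and the ratios between members after values were seen. List genes named by the rule in the interaction comparisons, one of the markers and one of the genes alike to TOP2B are not reported here. Promoter stretches are from RefSeq. Intervals and errors do not cover steps before the deposited counts.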

Additional observations from a re-analysis of the deposited data

How the results depend on the processing

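Of 564 gene-level alternatives, 533 kept their direction and side of the threshold, 8 crossed it and 23 reversed. Among counts of members called, which were 0 in the 10 comparisons, RNA at 72 h gave 1 with DESeq2 (TOP1, log2 fold change -1.47) and 1 in the joint fit (TOP1, -1.43), and 1 without replicate 3 of both arms (TOP2A, -1.14; TOP1 then -1.98, edgeR adjusted p = 0.0737). Footprints at 72 h gave 1 with DESeq2 (TOP2A, -2.13), 1 in the joint fit (TOP2A, -1.97) and 2 without replicate 3 of both arms (TOP2A, -2.37; TOP2B, -1.24). Leaving out 1 library gave 0 to 1 for footprints at 72 h, where the 1 was TOP2A without DMSO replicate 3 (-2.40), and 0 to 0 elsewhere. The cause was not tested. With library totals TOP1MT RNA at 2 weeks was -0.09, TOP3B RNA at 72 h against 6 h -0.01 and TOP2B footprints at 72 h against 6 h 0.33, the last being 0.03 with the looser filter. Leaving out 1 library reversed TOP3A RNA at 72 h (-0.28 to 0.18), at 2 weeks (-0.12 to 0.04) and at 72 h against 6 h (-0.18 to 0.29), TOP3B RNA at 72 h (-0.61 to 0.36) and at 72 h against 6 h (-0.31 to 0.67), and TOP1MT RNA at 2 weeks (-0.04 to 0.15). At 72 h against 6 h it reversed TOP2B RNA (-0.51 to 0.03), TOP2B footprints (-0.57 to 0.09), TDP1 RNA (-0.19 to 0.06) and TDP2 RNA (-0.23 to 0.06). Same-numbered libraries of both arms did not deviate together throughout, so numbers were not used as pairs. In RNA, r was -0.09, -0.03 and -0.12 at 6 h and 0.07, 0.26 and 0.16 at 72 h. In footprints it ran from -0.73 (replicate 3 at 6 h) to 0.38 (replicate 3 at 2 weeks). Between RNA and footprint libraries at 72 h, r was 0.14, 0.08 and 0.18 in DMSO and 0.18, 0.19 and 0.42 in actD. With the replicate block 0 members were called in each comparison, and TOP3A RNA at 72 h was 0.03. TOP2A RNA at 72 h was then -1.01 (edgeR unadjusted p = 0.00354, against 0.0456 without the block, and adjusted p = 0.266). TOP2A translational efficiency at 72 h was -1.19 (edgeR adjusted p = 0.226).

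Counts of all genes called moved more. DESeq2 gave 204, 605 and 197 genes in RNA at the 3 times, 12 in footprints at 6 h, 1 and 59 for translational efficiency at 6 h and 72 h, and 158 (RNA) and 6 (footprints) for 72 h against 6 h. The joint fit gave 1212 in RNA at 72 h. The 92 genes of footprints at 72 h became 7 with library totals, 2 with the looser filter and 0 with the block, and 0 to 282 without 1 library. Library totals moved the median of all genes to -0.79 for translational efficiency at 6 h and 0.36 at 72 h, and to 0.82 for footprints at 72 h against 6 h. In footprints 6 of the 8 members lay below the filter, for reasons that were not tested, and TOP2B had 8 to 92 counts per library.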
